A study of Homo sapiens with 6 samples.

Results

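The genes described here are 56 factors that build ribosomes in the nucleolus. They include core proteins of the small nucleolar ribonucleoproteins (snoRNPs), small subunit processome members, and factors that assemble the large and small ribosomal subunits. They were taken by symbol from the deposited expression table, where each of the 56 had a row among 16197 genes. The libraries come from Panc1, a long-established human pancreatic ductal carcinoma line, and number 3 with BRQ and 3 with the solvent DMSO. DHODH, the mitochondrial enzyme that makes orotate for pyrimidine nucleotides, is the target given in the title of the series, and BRQ is read here as its known inhibitor brequinar. The comparison asks how RNA levels in these cells differ under that inhibitor. Both groups were grown in DMEM with fetal bovine serum, and the labels name no genetic change. The sources used here do not give the dose, the exposure time or the number of separate cultures, so p-values reflect only how these libraries vary, which may be technical variation.

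Ribosomes are made from a long precursor rRNA that RNA polymerase I transcribes in the nucleolus. Box C/D snoRNPs guide 2′-O-methylation of this precursor and box H/ACA snoRNPs guide pseudouridylation, while the processome folds and cuts its small subunit part and a further set of GTPases, helicases and scaffold proteins assembles the large subunit. Because rRNA accounts for most of the RNA of a growing cell, its synthesis draws heavily on nucleotides, and the genes of these factors are generally described as targets of the transcription factor MYC. In the table's own annotation, 50 of the 56 genes carried the Gene Ontology term nucleolus. GAR1, NHP2, NOP10, DDX10, NOB1 and LTV1 did not.

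Levels are FPKM, a level scaled by the authors to gene length and library size. The table holds no counts, so the depth of each library is unknown. Correlations of log2(FPKM + 1) across the 10689 genes tested ran from 0.9949 to 0.9965 for libraries given the same agent and from 0.9676 to 0.9744 for a BRQ and a DMSO library. The 7 epithelial and line markers summed to 3138 to 3310 FPKM in BRQ and 4245 to 4412 FPKM in DMSO libraries, but they did not stand the same way. VIM, vimentin, an intermediate filament gene of mesenchymal cells, accounts for most of that difference, at 865 to 903 FPKM in BRQ and 1849 to 1902 FPKM in DMSO. KRT18 and KRT19 were also lower in BRQ in every library, with KRT19 at 558 to 571 FPKM in BRQ and 690.4 to 732 FPKM in DMSO. EPCAM and MUC1 were higher in every BRQ library, with MUC1 at 58.75 to 66.6 FPKM in BRQ and 33.4 to 37.2 FPKM in DMSO. KRT8 overlapped, at 814 to 877 FPKM in BRQ and 782 to 822 FPKM in DMSO. KRT7 was low, at 1.16 to 1.39 FPKM in BRQ and 1.13 to 1.30 FPKM in DMSO. The line is generally described as lacking CDKN2A, yet that gene stood at 31.0 to 34.9 FPKM in BRQ and 44.2 to 49.4 FPKM in DMSO. No further check of cell identity was made. Of the 2 acinar markers with a row, none passed 0.14 FPKM in any library. The 4 fibroblast markers summed to 77.5 to 83.1 FPKM in BRQ and 52.0 to 55.1 FPKM in DMSO, nearly all of it LUM, while COL1A1, COL3A1 and DCN stayed at or under 1.37 FPKM. The 3 immune markers summed to 155 to 164 FPKM in BRQ and 104 to 110.3 FPKM in DMSO, nearly all of it CD68, with PTPRC and CD3E at or under 0.161 FPKM. Haemoglobin RNA set BRQ libraries 1 and 2 apart, with HBB at 64.2 and 32.8 FPKM there and at most 0.739 FPKM in the other 4 libraries. The part of these transcripts in the results was not tested, and the median log2 fold change of the factors is also given without those libraries. In bulk RNA, fewer cells of a kind and less RNA per cell cannot be told apart.

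RNA of the nucleolar factors was lower in BRQ-treated cells for 28 of the 56 genes and higher for 10, and 18 did not pass the test. The test was limma on log2(FPKM + 1) over the 10689 genes that averaged 1 FPKM or more, with a Benjamini-Hochberg adjusted p under 0.05, and all 56 genes entered it. The factors called lower were 50% and those called higher 17.9%, against 25.2% and 36.9% of all genes tested (62.1% in either direction). The median log2 fold change (BRQ minus DMSO) was -0.14 for the factors and 0.06 for all genes tested. With median-of-ratios scaling the counts were 33 lower and 7 higher, where 30.8% of all genes tested were lower and 31.2% higher. With TPM scaling and trimmed-mean scaling they were also 33 and 7. All genes tested then stood at 29.6% lower and 31.6% higher with TPM scaling, and at 30.6% and 31.3% with trimmed-mean scaling. Without BRQ libraries 1 and 2 the median log2 fold change was -0.18 for the factors and 0.06 for all genes tested. That fit has 1 BRQ library left, assumed to vary like the DMSO libraries.

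The changes were small, and 0 of the factors moved by 2-fold or more. The falls ran from 0.14 to 0.73 on the log2 scale and the rises from 0.14 to 0.33. A log2 fold change of -0.5 or lower was reached by 10.7% of the factors and by 6.14% of all genes tested. The factors were counted on rounded values and all genes on unrounded ones, and HEATR1 lay on the cut-off. At 0.5 or higher stood 0 of the factors, against 11.5% of all genes tested. All 3 BRQ values lay below all 3 DMSO values for 28 factors, a pattern found in 27.9% of all genes tested, and above them for 12 factors, against 39.3%. Summed over the 56 genes, RNA amounted to 2616, 2477 and 2498 FPKM in BRQ libraries and 2834, 2830 and 2741 FPKM in DMSO libraries. Without NPM1 the sums were 2313, 2206 and 2222 FPKM in BRQ and 2355, 2356 and 2280 FPKM in DMSO. BRQ library 1 then lay above DMSO library 3. Over all genes, BRQ library 1 had the highest total (387640 FPKM) and DMSO library 3 the lowest (357245 FPKM). The sums were not rescaled for this. Removing a smooth trend of fold change with genomic span moved some values by over 1.5 times, in both directions. FBL, GAR1, RRP9, BRIX1, NIP7 and MRTO4 then stood lower, at -0.25, -0.32, -0.31, -0.29, -0.39 and -0.26, and NVL higher, at 0.32. DDX10 then stood at -0.25, UTP20 at -0.19 and GNL3L at -0.29, still past the threshold. UTP3, NOP56, NHP2, NOLC1 and DDX56 stayed higher at 0.16, 0.13, 0.11, 0.13 and 0.16, and the count was 36 lower and 9 higher. In that fit 23.2% of all genes tested were lower and 35.9% higher.

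**Figure D1:**
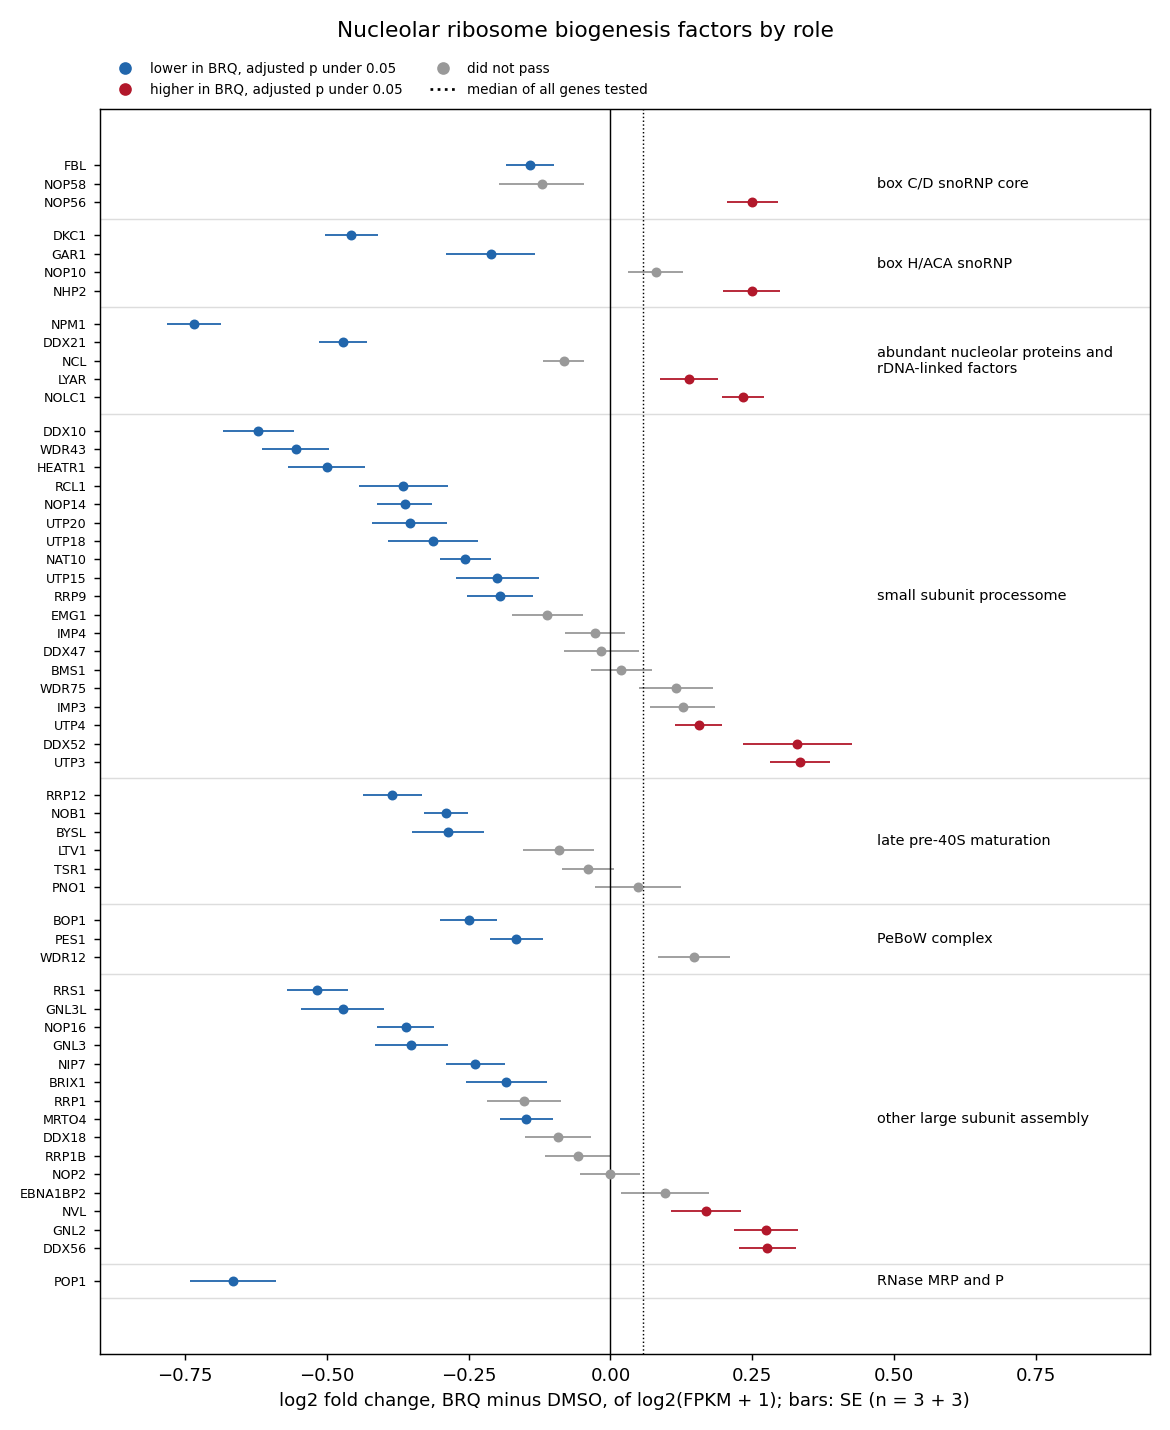
Log2 fold change (BRQ minus DMSO, on the log2(FPKM + 1) scale) of the 56 factors, grouped by role, with SE bars from the fit to 3 BRQ and 3 DMSO libraries; colour gives the call and the dotted line the median of all genes tested (0.06). Blue points (28 genes) outnumber red ones (10 genes), where 25.2% of all genes tested were lower and 36.9% higher. Every role group of 3 or more genes holds points on both sides of 0.

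**Figure D2:**
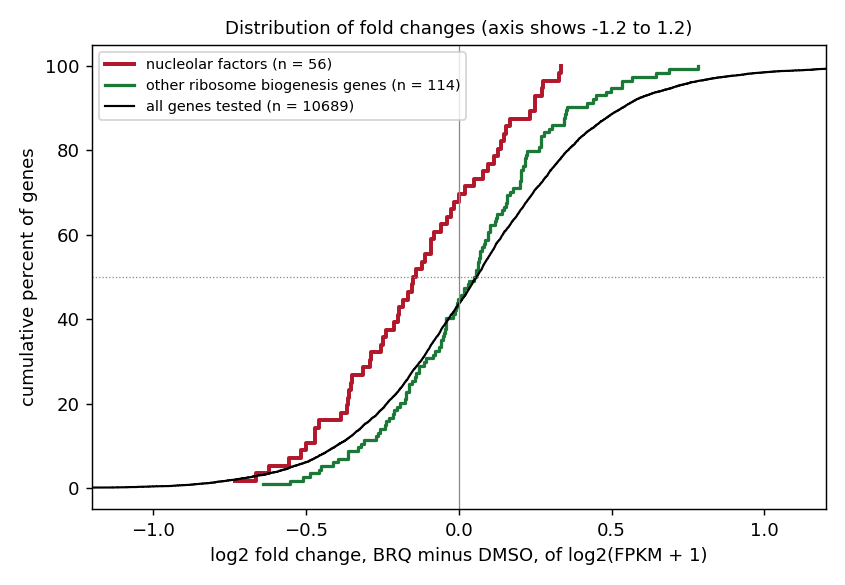
Cumulative percent of genes against the log2 fold change (BRQ minus DMSO) for the 56 nucleolar factors, 114 other tested genes of ribosome biogenesis and all 10689 tested genes. The curve of the 56 factors lies to the left, with a median of -0.14, while the other ribosome biogenesis genes (median 0.05) cross the midline beside all genes tested (0.06).

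Promoter sequence was not used to choose these genes, but genes and motif were both chosen with earlier results of these data known. A RefSeq table (GRCh38.p14) held the 250 bases before and 50 bases after the start of 47 of the 56 genes, and 19 of these promoters (40.4%) contained CACGTG. This word is the canonical E-box, bound by MYC and MAX among other factors, and reads the same on both strands. The share was 10.5% in 8802 promoters of tested genes and 7.43% in all 27305 promoters of the table. The factors thus held the motif more often than tested genes at large, a description with no test. In the matched promoters of other ribosome biogenesis genes the share was 28.7%, or 29 promoters. Among the 22 matches in the factors' promoters, 19 lay within 100 bases of the start. By call, it was found in 11 of 24 promoters of factors that fell, 2 of 8 of those that rose and 6 of 15 of those that did not pass. Median log2 fold changes were -0.15 for the 19 factors with CACGTG and -0.13 for the 28 without it. Of all tested genes with the motif 25.1% fell, against 24.9% of those without it. A link between the motif and the direction of change was not tested. Of the 2 factors with an E-box that rose, UTP4 and GNL2, the call of UTP4 was lost under the 3 other scalings. Sequences are shown for these 2 and for the 3 E-box factors lowest in log2 fold change on the log2(FPKM + 1) scale. Each is written 5′ to 3′ on the gene's strand, with the start at the base after the first 250 and CACGTG in capitals.
WDR43 (chr2:28894417-28894716, plus strand): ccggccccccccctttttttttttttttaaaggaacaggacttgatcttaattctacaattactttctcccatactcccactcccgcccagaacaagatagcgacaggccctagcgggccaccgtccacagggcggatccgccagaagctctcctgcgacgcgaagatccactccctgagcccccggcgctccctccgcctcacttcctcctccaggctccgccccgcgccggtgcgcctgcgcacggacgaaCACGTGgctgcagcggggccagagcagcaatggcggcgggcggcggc
RCL1 (chr9:4792694-4792993, plus strand): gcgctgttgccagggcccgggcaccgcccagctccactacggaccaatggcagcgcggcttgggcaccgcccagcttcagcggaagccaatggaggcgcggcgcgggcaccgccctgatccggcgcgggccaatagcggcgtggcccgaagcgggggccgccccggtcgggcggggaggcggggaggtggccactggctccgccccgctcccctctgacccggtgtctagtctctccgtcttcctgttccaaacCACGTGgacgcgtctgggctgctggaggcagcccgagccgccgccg
NOP14 (chr4:2963357-2963656, minus strand): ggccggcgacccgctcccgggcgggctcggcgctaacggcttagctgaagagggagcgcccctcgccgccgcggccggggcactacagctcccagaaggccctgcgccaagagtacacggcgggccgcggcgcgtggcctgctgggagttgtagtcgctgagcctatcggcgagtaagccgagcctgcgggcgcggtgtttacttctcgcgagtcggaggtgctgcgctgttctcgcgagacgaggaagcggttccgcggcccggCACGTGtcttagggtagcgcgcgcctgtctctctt
UTP4 (chr16:69132399-69132698, plus strand): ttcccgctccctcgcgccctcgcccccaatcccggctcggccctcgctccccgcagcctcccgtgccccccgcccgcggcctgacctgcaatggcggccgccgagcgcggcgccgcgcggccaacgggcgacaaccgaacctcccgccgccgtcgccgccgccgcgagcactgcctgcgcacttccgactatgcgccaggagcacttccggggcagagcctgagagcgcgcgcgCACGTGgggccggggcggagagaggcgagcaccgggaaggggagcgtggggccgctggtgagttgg
GNL2 (chr1:37595888-37596187, minus strand): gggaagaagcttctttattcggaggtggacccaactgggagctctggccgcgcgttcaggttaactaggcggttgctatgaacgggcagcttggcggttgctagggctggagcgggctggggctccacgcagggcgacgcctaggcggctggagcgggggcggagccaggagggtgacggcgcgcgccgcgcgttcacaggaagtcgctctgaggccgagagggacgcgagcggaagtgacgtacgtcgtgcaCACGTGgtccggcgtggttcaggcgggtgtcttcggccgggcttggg
The E-box centres lie 6 bases after the start of WDR43, 7 after that of RCL1, 18 after that of NOP14 and 6 after that of GNL2, and 13 bases before that of UTP4. A match is a description of the letters, not evidence that a protein binds there. MYC itself had 44.2, 43.55 and 46.95 FPKM in BRQ libraries and 80.3, 78.7 and 74.8 FPKM in DMSO libraries. Its BRQ values all lay below its DMSO values, with a log2 fold change of -0.78 ± 0.05 (SE, limma adjusted p = 3.19e-07).

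**Figure D3:**
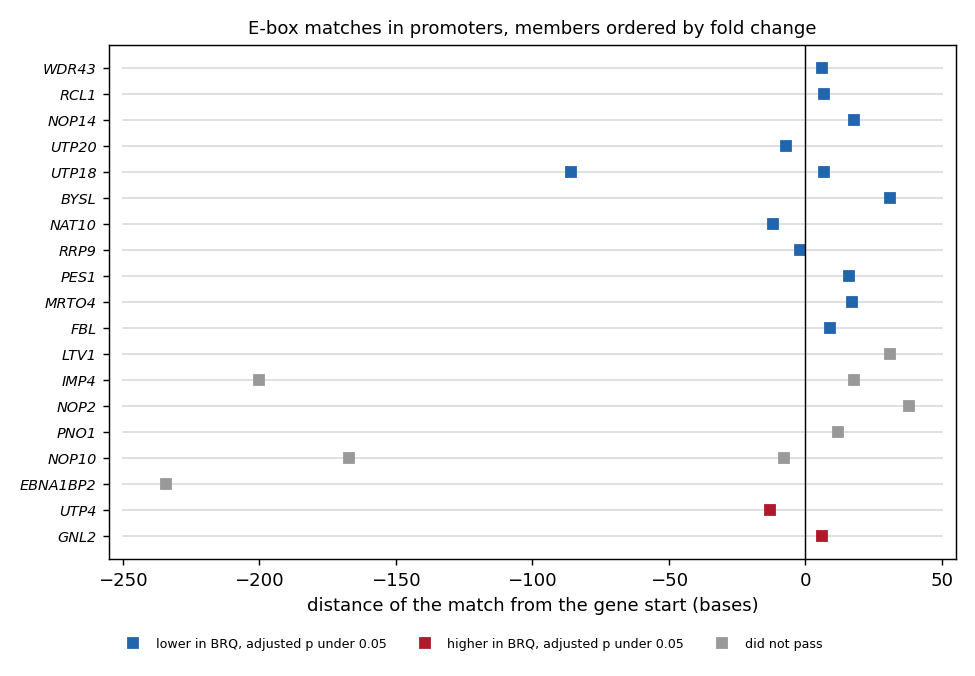
Position of each CACGTG match in the 19 promoters that hold one, as the distance in bases from the gene start (negative before it, positive after it), with genes ordered from the lowest to the highest fold change. Squares gather near the start in genes that fell (blue), that rose (red) and that did not pass (grey), and 19 of the 22 lie within 100 bases of it.

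The abundant nucleolar proteins and factors tied to rDNA split, with 2 of 5 lower, 2 higher and 1 not past the test. Of all genes tested 25.2% were lower and 36.9% higher. NPM1, the nucleolar chaperone of histones and ribosomal proteins, on chromosome 5 from 171387116 to 171410900 (GRCh38), had the highest level of the 56 genes and the lowest log2 fold change on the log2(FPKM + 1) scale, which understates low genes. By the ratio of mean FPKM, POP1 was lower still, at 0.559 against 0.601 for NPM1. It stood at 304, 271 and 276 FPKM in BRQ libraries, against 479, 474 and 461 FPKM in DMSO libraries. The groups lay far apart, with means of 284 ± 17.6 FPKM in BRQ and 472 ± 9.08 FPKM in DMSO (SD, n = 3 each). The log2 fold change was -0.73 ± 0.05 (SE), with a limma adjusted p of 4.91e-07. NPM1 made up 11.2% of the summed FPKM of the 56 genes in BRQ and 16.8% in DMSO. GENCODE 29 names 45 pseudogenes after NPM1, so its level depends on how shared reads were assigned.

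DDX21, a nucleolar RNA helicase linked to rRNA transcription and snoRNAs, had 48.3, 48.9 and 50.7 FPKM in BRQ and 67.4, 67.8 and 71.0 FPKM in DMSO. It too fell without overlap between groups (log2 fold change -0.47 ± 0.04 SE, limma adjusted p = 4.55e-06). NOLC1, a chaperone that accompanies snoRNPs between nucleolus and Cajal bodies, moved the other way. It had 97.1, 97.4 and 98.8 FPKM in BRQ against 82.55, 83.5 and 82.9 FPKM in DMSO, a rise of 0.23 ± 0.04 on the log2 scale (SE, limma adjusted p = 0.000242). LYAR, a nucleolar zinc finger protein, was higher by 0.14 (limma adjusted p = 0.036), a call lost with median-of-ratios scaling (log2 fold change 0.08) and in 9 other alternatives. NCL, nucleolin, a major RNA-binding protein of the nucleolus, had 189.3, 189.7 and 192.5 FPKM in BRQ and 199, 201 and 205 FPKM in DMSO. The groups did not overlap, but the log2 fold change of -0.08 missed the threshold (limma adjusted p = 0.0651). NCL passed as lower with median-of-ratios scaling, at a log2 fold change of -0.15, and in 5 other alternatives.

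**Figure D4:**
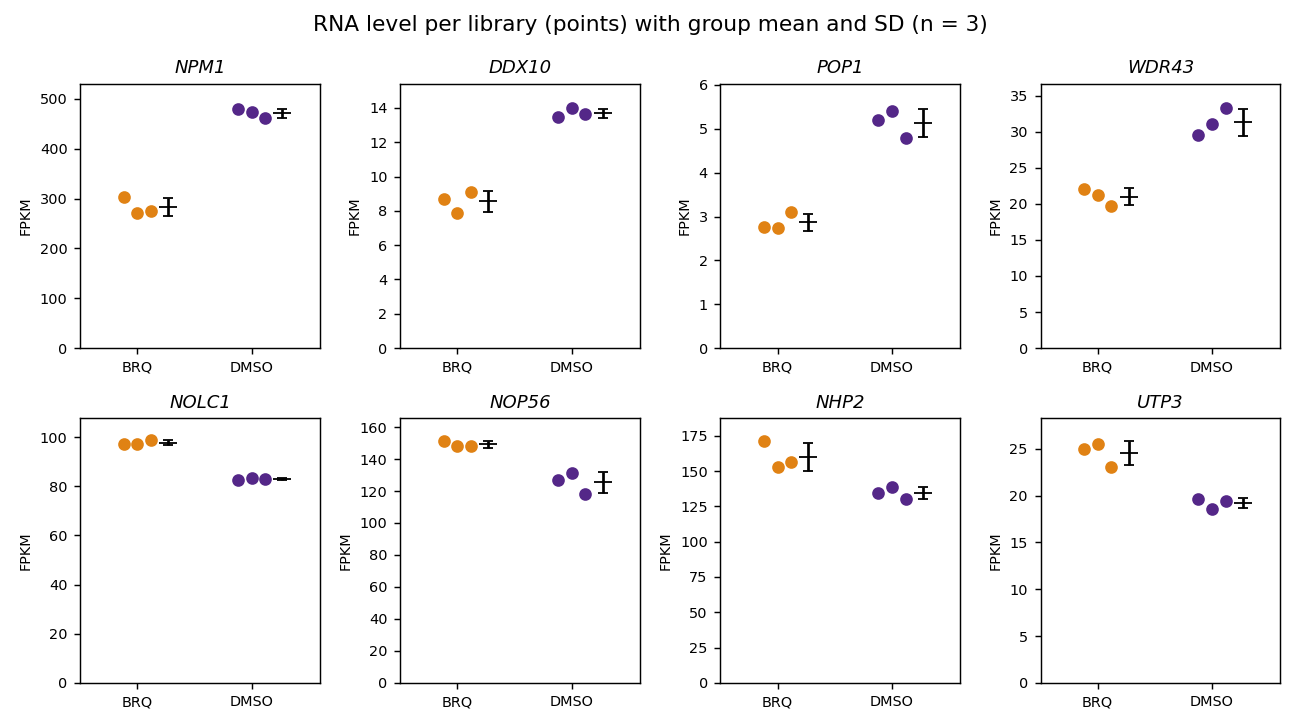
FPKM of 4 factors that fell (upper row: NPM1, DDX10, POP1, WDR43) and 4 that rose (lower row: NOLC1, NOP56, NHP2, UTP3), with 1 point for each library, BRQ left of DMSO, and the group mean with SD beside the points (n = 3). In each panel the BRQ points lie wholly below or wholly above the DMSO points.

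Subunits of 1 snoRNP did not move as a unit. In the box H/ACA particle DKC1 and GAR1 fell, NHP2 rose and NOP10 did not pass. DKC1, dyskerin, the pseudouridine synthase of the particle and a part of telomerase, on chromosome X from 154762864 to 154777689, had 37.6, 36.8 and 35.4 FPKM in BRQ against 51.8, 48.1 and 51.9 FPKM in DMSO. Its log2 fold change was -0.46 ± 0.05 (SE, limma adjusted p = 1.27e-05). NHP2, a small RNA-binding protein of the same particle, had 171, 153 and 156 FPKM in BRQ against 134, 139 and 130.1 FPKM in DMSO. It rose by 0.25 ± 0.05 on the log2 scale (SE, limma adjusted p = 0.00125), with no overlap between groups. In GENCODE 29 the gene RMND5B overlaps 27.4% of the exonic bases of NHP2, and how such reads were counted is not given in the sources used here.

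GAR1, which helps the particle release its product, averaged 18.05 ± 1.40 FPKM in BRQ and 21.1 ± 2.25 FPKM in DMSO (SD, n = 3 each). Its values overlapped between the groups, and its call (log2 fold change -0.21, limma adjusted p = 0.0359) was lost in 6 of 15 alternatives. NOP10, the smallest subunit, averaged 247 ± 10.35 FPKM in BRQ and 234 ± 11.96 FPKM in DMSO (log2 fold change 0.08, limma adjusted p = 0.171). Removing a trend with genomic span turned its log2 fold change to -0.11 (limma adjusted p = 0.0337). The difference between NHP2 and DKC1 on the log2(FPKM + 1) scale was 2.16, 2.02 and 2.11 in BRQ libraries and 1.36, 1.51 and 1.31 in DMSO libraries. The libraries of the groups did not overlap, and the exact two-sided permutation test gave p = 0.1, the smallest that 3 against 3 libraries allow. That outcome was fixed in advance, since all BRQ values of NHP2 lay above and all those of DKC1 below the DMSO values. The pair was also chosen after its values were seen.

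The 3 box C/D core proteins among the factors split as well. FBL, fibrillarin, the methyltransferase, had 149.5, 147 and 143 FPKM in BRQ against 166, 165 and 154 FPKM in DMSO. It fell by 0.14 on the log2 scale (limma adjusted p = 0.0128), and the call was lost without BRQ library 3, DMSO library 1 or DMSO library 2 (highest adjusted p = 0.0569). NOP56 and NOP58 are paralogs that sit side by side in the particle. NOP56 had 151.5, 148 and 148 FPKM in BRQ against 127, 131 and 118 FPKM in DMSO, a rise of 0.25 ± 0.05 (log2 scale, SE, limma adjusted p = 0.000648). NOP58 had 55.9, 48.1 and 44.15 FPKM in BRQ against 56.5, 53.0 and 51.3 FPKM in DMSO. Its groups overlapped and it did not pass (log2 fold change -0.12 ± 0.08, limma adjusted p = 0.181), but it passed as lower under the 3 other scalings, the lowest value there being -0.19. Single libraries moved it: the log2 fold change was -0.21 without BRQ library 1 (limma adjusted p = 0.00761), -0.27 without BRQ libraries 1 and 2 (limma adjusted p = 0.00738) and -0.05 without BRQ library 3. The log2 difference between NOP56 and NOP58 was 1.42, 1.603 and 1.72 in BRQ and 1.15, 1.29 and 1.19 in DMSO (exact two-sided permutation p = 0.1, the smallest possible). NOP56 holds 5 snoRNA genes within its span in GENCODE 29 and NOP58 holds 4. They are among 7 factors that do, with GNL3, NCL, DKC1, WDR43 and TSR1.

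**Figure D5:**
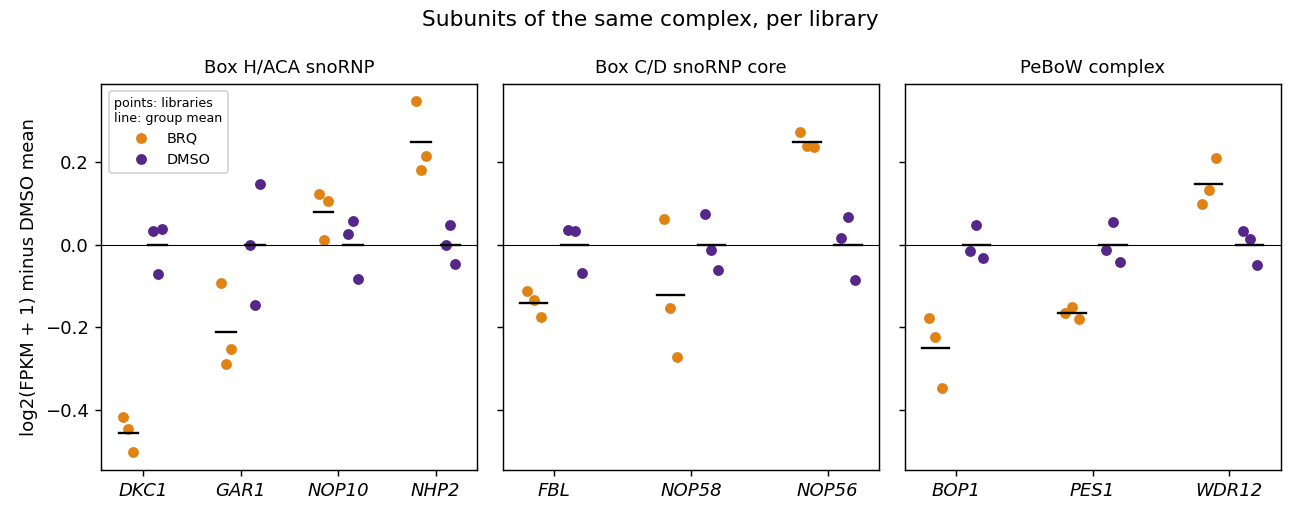
Level of each subunit among the factors, per library, as log2(FPKM + 1) minus its DMSO mean. Panels show the box H/ACA snoRNP, the box C/D core and the PeBoW complex. BRQ is left of DMSO, with points for libraries and lines for group means. In each complex at least 1 subunit sits below 0 in BRQ and at least 1 above 0 (DKC1 and NHP2, FBL and NOP56, BOP1 and WDR12), although WDR12 did not pass the test.

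Of 19 processome factors, 10 fell (52.6%), 3 rose (15.8%) and 6 did not pass, with a median log2 fold change of -0.19. Among all genes tested 25.2% fell and 36.9% rose. DDX10, a helicase whose yeast counterpart acts on snoRNAs in the processome, lies on chromosome 11 from 108665069 to 108940927. It had 8.70, 7.90 and 9.10 FPKM in BRQ against 13.5, 14.0 and 13.7 FPKM in DMSO (log2 fold change -0.62 ± 0.06 SE, limma adjusted p = 1.01e-05). With the span trend removed it was at -0.25, behind WDR43 at -0.53 and HEATR1 at -0.47. WDR43 had 22.1, 21.2 and 19.7 FPKM in BRQ against 29.6, 31.1 and 33.3 FPKM in DMSO (log2 fold change -0.55 ± 0.06 SE, limma adjusted p = 1.57e-05). HEATR1 had 10.4, 11.97 and 11.4 FPKM in BRQ against 15.1, 16.5 and 17.2 FPKM in DMSO (log2 fold change -0.50 ± 0.07 SE, limma adjusted p = 9.23e-05). All 3 BRQ libraries lay below all 3 DMSO libraries for each of these genes.

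WDR43 and HEATR1 belong, with UTP4, UTP15 and WDR75, to the early processome subcomplex that links rRNA transcription to processing, and these genes did not all move the same way. UTP15 fell by 0.20 (limma adjusted p = 0.0338), a call lost in 4 of 15 alternatives. UTP4, in contrast, had 64.35, 65.1 and 66.6 FPKM in BRQ against 59.5, 56.7 and 59.45 FPKM in DMSO, higher by 0.16 ± 0.04 (log2 scale, SE, limma adjusted p = 0.00667). That call was lost under the 3 other scalings, where the log2 fold change was 0.09 with median-of-ratios. WDR75 averaged 16.5 ± 1.09 FPKM in BRQ and 15.1 ± 0.925 FPKM in DMSO (SD, n = 3 each) and did not pass, except as higher without BRQ library 2 (log2 fold change 0.17, limma adjusted p = 0.0495).

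UTP3, a processome protein that joins early, rose. It had 24.95, 25.5 and 23.1 FPKM in BRQ against 19.6, 18.6 and 19.45 FPKM in DMSO (log2 fold change 0.33 ± 0.05 SE, limma adjusted p = 0.000277). The helicase DDX52 was higher by a similar 0.33 ± 0.10 (log2 scale, SE) at a low level, 5.35 ± 0.506 FPKM in BRQ and 4.07 ± 0.572 FPKM in DMSO. Its ratio of mean FPKM, 1.32, was above the 1.275 of UTP3. Its call was lost with no filter and without BRQ libraries 1 and 2. The other 6 factors that fell were RCL1, NOP14, UTP20, UTP18, NAT10 and RRP9, with log2 fold changes from -0.37 to -0.19, and the call of RRP9 was lost when BRQ library 3, DMSO library 1 or DMSO library 2 was left out. NOP14 and UTP20 are scaffold proteins of the processome, and RRP9 belongs to the U3 snoRNP. RCL1, which acts in cutting the precursor, was the lowest of all 56, at 1.98 ± 0.0855 FPKM in BRQ and 2.84 ± 0.184 FPKM in DMSO, where the pseudocount of 1 understates the change. NAT10, the RNA cytidine acetyltransferase, averaged 32.1 ± 1.19 FPKM in BRQ and 38.5 ± 0.483 FPKM in DMSO. The rRNA methyltransferase EMG1, the U3 partners IMP3 and IMP4, the helicase DDX47 and the GTPase BMS1 did not pass, with log2 fold changes between -0.11 and 0.13, though EMG1 passed as lower under the 3 other scalings. IMP4 passed as lower with the span trend removed (log2 fold change -0.16, limma adjusted p = 0.0178), and IMP3 as higher without DMSO library 1 (0.17, limma adjusted p = 0.0291). Other genes overlap 53.1% of the exonic bases of EMG1, 59.3% of those of IMP3 and 36.5% of those of DDX47 in GENCODE 29, and 17 pseudogenes are named after BMS1.

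In the late maturation of the small subunit, 3 of 6 factors fell, 0 rose and 3 did not pass, where 25.2% of all genes tested fell and 36.9% rose. NOB1, the nuclease that makes the final cut of the small subunit rRNA, had 74.5, 71.55 and 73.1 FPKM in BRQ against 91.0, 89.5 and 88.0 FPKM in DMSO. Its groups were well apart (log2 fold change -0.29 ± 0.04 SE, limma adjusted p = 8.19e-05). PNO1, the partner that holds NOB1 in check on the particle, had 13.6, 11.2 and 11.1 FPKM in BRQ against 11.4, 11.8 and 11.2 FPKM in DMSO, which overlapped (limma adjusted p = 0.59). RRP12, an export factor, fell by 0.38 ± 0.05 on the log2 scale (SE, limma adjusted p = 8.76e-05). BYSL, bystin, fell by 0.29 ± 0.06 (log2 scale, SE, limma adjusted p = 0.0025). TSR1, a GTPase-like factor of late particles, averaged 29.8 ± 0.122 FPKM in BRQ and 30.7 ± 1.14 FPKM in DMSO, and the late assembly factor LTV1 10.01 ± 0.61 FPKM in BRQ and 10.7 ± 0.402 FPKM in DMSO (SD, n = 3 each), and neither passed. With the span trend removed both passed as lower, TSR1 at -0.14 (limma adjusted p = 0.0198) and LTV1 at -0.17 (limma adjusted p = 0.0271).

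PES1, BOP1 and WDR12 form the PeBoW complex, which is needed for the large subunit. BOP1 had 69.5, 67.2 and 61.7 FPKM in BRQ against 77.9, 81.4 and 77.0 FPKM in DMSO (log2 fold change -0.25 ± 0.05 SE, limma adjusted p = 0.00134). PES1 had 24.4, 24.65 and 24.2 FPKM in BRQ against 27.3, 28.6 and 26.7 FPKM in DMSO (log2 fold change -0.17 ± 0.05 SE, limma adjusted p = 0.00965). Both fell without overlap between groups. WDR12 had 7.06, 7.25 and 7.70 FPKM in BRQ against 6.70, 6.60 and 6.28 FPKM in DMSO. Its BRQ values all lay above its DMSO values, but the log2 fold change of 0.15 ± 0.06 (SE) did not pass (limma adjusted p = 0.0644). The log2 difference between WDR12 and BOP1, a pair chosen after its values were seen, averaged -3.01 ± 0.144 in BRQ and -3.41 ± 0.0436 in DMSO (SD, n = 3 each, exact two-sided permutation p = 0.1, the smallest possible). This p was fixed in advance, since all BRQ values of WDR12 lay above and all those of BOP1 below the DMSO values.

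Of the 15 other large subunit factors, 7 fell (46.7%), 3 rose (20%) and 5 did not pass. The shares over all genes tested were 25.2% lower and 36.9% higher. RRS1, which helps to place the 5S rRNA particle, fell, with 20.6, 20.2 and 20.1 FPKM in BRQ against 29.7, 27.5 and 31.3 FPKM in DMSO (log2 fold change -0.52 ± 0.05 SE, limma adjusted p = 1.35e-05). NOP16 averaged 49.7 ± 1.98 FPKM in BRQ and 64.1 ± 3.27 FPKM in DMSO (log2 fold change -0.36, limma adjusted p = 0.000105). The nucleolar GTPases GNL3 (nucleostemin) and GNL3L are paralogs, and both fell. GNL3 had 39.4, 32.8 and 33.3 FPKM in BRQ against 45.2, 44.1 and 45.5 FPKM in DMSO (log2 fold change -0.35 ± 0.06 SE, limma adjusted p = 0.000754). GNL3L, a low gene, had 3.24, 3.52 and 3.475 FPKM in BRQ against 5.10, 4.80 and 5.46 FPKM in DMSO (log2 fold change -0.47 ± 0.07 SE, limma adjusted p = 0.000227). Their log2 difference did not separate the groups, at 3.03 ± 0.193 in BRQ and 2.91 ± 0.0567 in DMSO (SD, n = 3 each, exact two-sided permutation p = 0.5).

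GNL2, another GTPase of the family, which acts on the large subunit before export, rose. It had 25.7, 26.7 and 26.0 FPKM in BRQ against 22.3, 22.4 and 19.75 FPKM in DMSO (log2 fold change 0.27 ± 0.06 SE, limma adjusted p = 0.00159). The helicase DDX56 had 93.4, 91.1 and 86.5 FPKM in BRQ against 79.0, 73.9 and 70.4 FPKM in DMSO, higher by 0.28 ± 0.05 (log2 scale, SE, limma adjusted p = 0.000719). NVL, an AAA ATPase, was higher by 0.17 (limma adjusted p = 0.0344), a call lost under the 3 other scalings and in 5 of the 7 fits that left out libraries. The assembly factors NIP7 and BRIX1 and MRTO4, which holds the place of a stalk protein, fell by 0.24, 0.18 and 0.15 on the log2 scale. BRIX1 (limma adjusted p = 0.0443) was lost in 6 of 15 alternatives and MRTO4 (limma adjusted p = 0.0173) in 3.

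RRP1 and RRP1B, paralogs on chromosome 21, did not pass. RRP1 averaged 14.2 ± 0.901 FPKM in BRQ and 15.9 ± 1.01 FPKM in DMSO, and RRP1B 15.8 ± 0.685 FPKM in BRQ and 16.5 ± 0.791 FPKM in DMSO (SD, n = 3 each). RRP1 passed as lower under the 3 other scalings, with a log2 fold change of -0.21. NOP2, a methyltransferase of large subunit rRNA and a known proliferation marker, stood at 34.25 ± 1.93 FPKM in BRQ and 34.2 ± 1.22 FPKM in DMSO (limma adjusted p = 0.996). Its log2 fold change was 0.00 ± 0.05 (SE), and in GENCODE 29 another gene overlaps 54.4% of its exonic bases. The helicase DDX18 and the assembly factor EBNA1BP2 stood at log2 fold changes of -0.09 and 0.10, and DDX18 passed as lower under the 3 other scalings.

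POP1, the largest protein of the RNA-cutting enzymes RNase MRP and RNase P, is a low gene with a ratio of mean FPKM (BRQ over DMSO) of 0.559, the lowest of the 56. It had 2.77, 2.73 and 3.09 FPKM in BRQ against 5.19, 5.41 and 4.78 FPKM in DMSO, with no overlap (log2 fold change -0.67 ± 0.08 SE, limma adjusted p = 2.56e-05). With 0.1 FPKM added instead of 1 the log2 fold change was -0.82. Of 7 other proteins of these enzymes tested, taken from a wider list of ribosome biogenesis genes, 5 rose (POP4, POP5, POP7, RPP25 and RPP30), 0 fell and 2 did not pass. POP5 had 38.8, 35.9 and 35.7 FPKM in BRQ against 20.3, 22.9 and 19.7 FPKM in DMSO (log2 fold change 0.78 ± 0.06 SE, limma adjusted p = 1.87e-06). POP7 had 72.8, 59.4 and 66.1 FPKM in BRQ against 41.0, 43.4 and 37.5 FPKM in DMSO (log2 fold change 0.69 ± 0.07 SE, limma adjusted p = 1.61e-05). This subset was picked out after its values were seen, and over all genes tested 36.9% rose and 25.2% fell.

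A list of 116 other ribosome biogenesis genes, among them further processome and large subunit factors, the RNA exosome and RNase MRP and P, had 114 genes tested. Of these 27 fell (23.7%), 38 rose (33.3%) and 49 did not pass, with a median log2 fold change of 0.05. These shares lie near the 25.2% and 36.9% of all genes tested. The lowest log2 fold changes on the log2(FPKM + 1) scale, which understates low genes, were those of MDN1, the giant ATPase that strips factors from the large subunit (log2 fold change -0.64, limma adjusted p = 0.000104), NUFIP1, a snoRNP assembly factor (-0.55, limma adjusted p = 0.000965), and RUVBL1, an ATPase of the same assembly machinery (-0.51, limma adjusted p = 1.48e-05). By the ratio of mean FPKM, NLE1 (0.686) was lower than RUVBL1 (0.691). The highest on that scale were POP5, POP7 and BUD23, the methyltransferase of small subunit rRNA, with 105, 94.2 and 94.9 FPKM in BRQ against 60.3, 63.25 and 63.4 FPKM in DMSO (log2 fold change 0.64, limma adjusted p = 1.59e-06). The low gene RPP30 had a ratio of mean FPKM of 1.631, against 1.627 for POP7 and 1.57 for BUD23. The difference between the 2 lists was not tested, since members of both were chosen by hand.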

How the data were processed

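RNA of 6 libraries of Panc1 cells, 3 given BRQ and 3 given DMSO, was extracted with TRIzol, per the labels' protocols. The authors deposited FPKM values per gene and library, without counts. The submitters' processing notes name fastp, HTSeq and the build hg38; aligner, annotation, strand and gene lengths are not given in the sources used here. FPKM is relative to the library total, so a rise in abundant genes lowers others. Of the 16197 genes, 10689 reached an average of 1 FPKM and entered a fit with limma (version 3.58.1, R version 4.3.3). Values were log2-transformed after adding 1 FPKM, treatment was the sole term, and eBayes used a mean-variance trend, with two-sided p-values adjusted by Benjamini-Hochberg at 0.05. The fit was also run on simulated data with far fewer changed genes than were called here, so that run does not vouch for these calls. The factors, lists, role groups and motifs were chosen with earlier results of these data known.

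Genes were matched to RefSeq (GRCh38.p14) by Entrez number (16158 of 16197), and overlaps, pseudogenes and snoRNA genes were read from GENCODE 29. All columns of per-library values were used. The text names, by a rule set at the outset, the largest changes in each role group, every factor that rose or did not pass, paralog pairs, and the 3 largest falls and rises of each further list, by log2(FPKM + 1); other factors are named besides. A list of noncoding snoRNA host genes was not analysed here. The fit was repeated with 0.1 FPKM added instead of 1, without the minimum level or with one of 5 FPKM, and with levels rescaled to median ratios, to TPM or to a trimmed mean. It was also repeated with a replicate block, with a trend with genomic span removed, without each library in turn, and without BRQ libraries 1 and 2. A further promoter motif was searched, and 1 factor (NOP14) held it. Of the marker lists, islet genes were not analysed here. Figures were drawn with matplotlib 3.10.9.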

Additional observations from a re-analysis of the deposited data

How the results depend on the processing

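Of the 28 factors called lower, 22 were lower past the threshold in each of the 15 alternatives in which they were tested, and of the 10 called higher, 6 were (DDX56, GNL2, NHP2, NOLC1, NOP56 and UTP3). The count of lower factors ran from 22 to 36 and that of higher ones from 7 to 10. The median log2 fold change of the factors, -0.14, was -0.21 with median-of-ratios scaling, -0.20 with TPM scaling, -0.21 with trimmed-mean scaling, -0.20 with the trend with genomic span removed, -0.18 without BRQ libraries 1 and 2, and from -0.16 to -0.12 when single libraries were left out. Those scalings shift the median of all genes tested from 0.06 to between 0.00 and 0.01, and with median-of-ratios scaling 3296 genes were called lower and 3335 higher, where the fit to FPKM as deposited called 2692 lower and 3946 higher. Without BRQ libraries 1 and 2, which leaves 1 BRQ library, 24 of the other ribosome biogenesis genes were called higher instead of 38. Fewer of all genes tested were called higher in that fit too, so the drop was not confined to these genes. As a share of the genes tested, however, it was larger in these genes. The cause was not tested.

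Signs turned in factors that had not passed, by small amounts. NOP10 was at -0.11 with the span trend removed (limma adjusted p = 0.0337), EBNA1BP2 at -0.0162 and IMP3 at -0.0721. PNO1 was at -0.012, -0.0045 and -0.0103 with the scalings by median of ratios, by TPM and by trimmed mean, -0.0414 with the span trend removed, -0.0474 without BRQ libraries 1 and 2 and from -0.0396 to 0.0972 over single libraries left out. BMS1 was at -0.0442, -0.0363 and -0.0424 under those scalings and ran from -0.0225 to 0.0439 over single libraries left out. NOP2 was at 0.0377 and DDX47 at 0.008 without BRQ libraries 1 and 2, and over single libraries left out they ran from -0.0275 to 0.0458 and from -0.0653 to 0.0411, and IMP4 from -0.0714 to 0.0053. The cause was not tested. Whether the replicate numbers of the titles pair the libraries is not given in the sources used here. Correlations of same-numbered deviations were 0.144, 0.00804 and 0.0584, which cannot decide it with 3 libraries in each group. Not every library correlated best with its own number. With the replicate number as a block 30 factors were lower, NCL and NOP58 added, and 10 higher. The block fit called 25.9% of all genes tested lower and 37.7% higher. Depth is unknown, so no counting interval can be given.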

Other observations

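The machinery that transcribes rRNA, RNA polymerase I and its factors, was read as a neighbouring list. Of 15 genes tested, 7 fell, 4 rose and 4 did not pass, with a median log2 fold change of -0.20, where 25.2% of all genes tested fell and 36.9% rose. TAF1D, a subunit of the selectivity factor SL1 that recruits the polymerase to rDNA, had 19.5, 16.7 and 19.5 FPKM in BRQ against 41.65, 37.1 and 39.5 FPKM in DMSO, a log2 fold change of -1.05 ± 0.07 (SE, limma adjusted p = 4.79e-07). The polymerase subunits POLR1E (log2 fold change -0.45, limma adjusted p = 0.000109) and POLR1A, the largest subunit (-0.43, limma adjusted p = 0.000145), also fell. TAF1C, another SL1 subunit, rose instead, to 18.8 ± 0.266 FPKM in BRQ against 14.4 ± 0.453 FPKM in DMSO (SD, n = 3 each; log2 fold change 0.36, limma adjusted p = 0.000107). TTF1, the terminator of rDNA transcription, and POLR1F rose by 0.26 and 0.23 on the log2 scale, and both calls were lost with median-of-ratios scaling (log2 fold changes 0.21 and 0.17).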
